A study of Homo sapiens with 2 samples.

Results

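The genes described here encode proteins of the tight junction: the claudins CLDN1, CLDN3, CLDN4, CLDN7, CLDN8, CLDN11 and CLDN12, the adhesion receptor CXADR, occludin (OCLN) and the scaffold protein ZO-1 (TJP1). They were taken as every probe set that the array's annotation assigned to exactly 1 of these 10 genes, which gave 22 of 41091 probe sets with 1 gene name, and 10 of 19775 genes. The genes were selected on their differences between these same 2 arrays, so the values below describe them and test nothing. RNA was from C4-2 cells, a human prostate cancer line derived from LNCaP, 48 h after transfection with miR-99a or with the control small interfering RNA si-GL2. Both cultures received RNAiMax, a lipid transfection reagent, and grew in the same serum-containing medium; the labels give neither the dose of the 2 RNAs nor the miR-99a strand delivered. Each group holds 1 Affymetrix array of 1 culture, so values come without replicate error or p-value. The lowest and highest signals were 0.70 and 13495 with miR-99a, and 0.73 and 13399 with si-GL2, and the number of arrays limits the precision.

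Tight junctions seal the space between neighbouring epithelial cells and hold apart their apical and basolateral membranes. Claudins span the membrane several times and form the sealing strands, some of them tightening the barrier and others opening pores for ions. Occludin sits in the same strands, CXADR joins neighbouring cells beside them through its immunoglobulin domains, and ZO-1 ties these membrane proteins to actin beneath the membrane.

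The transfected agent belongs to a family that acts by pairing of a short seed, bases 2 to 8 of the mature RNA, with target transcripts. The mature sequences in RefSeq (GRCh38.p14) are shown because they define the perturbation, 5′ to 3′ with the seed in capitals. The labels name no arm, and the 5p arm is printed as the one with the family seed.
hsa-miR-99a-5p: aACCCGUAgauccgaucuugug
hsa-miR-100-5p: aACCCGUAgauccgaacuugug
hsa-miR-99b-5p: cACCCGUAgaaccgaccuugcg
Only these 3 entries of the mature miRNA table carry the seed. The miR-100 sequence differed from that of miR-99a at 1 base and the miR-99b sequence at 4 bases, all outside the seed. MIR99A lies on chromosome 21 at chr21:16539089-16539169. CXADR lies on the same chromosome, 973874 bases away at chr21:17513043-17636262, and CLDN8 is on it too. Whether transcripts of the 10 genes carry a match to the seed was not tested.

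Differences are given as log2(signal + 16), miR-99a minus si-GL2, a scale that compresses the differences of dim probe sets. A difference of at least 1.5-fold on that scale, 0.58, was counted as higher or lower. A probe set was called expressed when its mean over both arrays was at or above the median probe set, a signal of 47.2, which is a relative limit and not a detection call. CXADR and CLDN12 stood above the control array, while occludin and the other claudins lay within 1.5-fold by their brightest probe sets. Of the 22 probe sets, 5 were higher and 1 was lower, where 3.39% of all named probe sets were higher and 3.72% lower. Of the 18 expressed ones, 5 were higher and 0 lower, against a background of 1.53% and 2.76%. By the brightest probe set of each gene, 2 of the 10 genes were higher and 0 lower, against 2.90% and 3.69% of all genes. Nothing is read from these shares, since the genes were chosen by these differences.

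**Figure D1:**
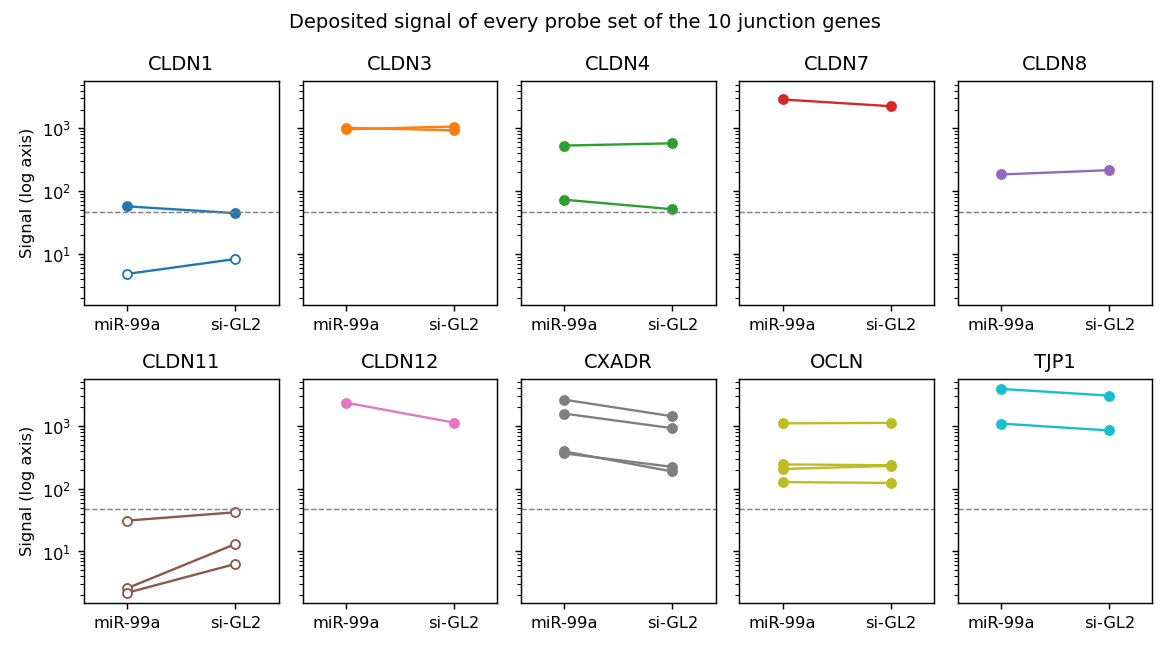
Deposited signal (log axis) of every probe set of the 10 genes on the miR-99a array (left of each panel) and the si-GL2 array (right), with 1 line per probe set. Open points mark probe sets below the expression limit, drawn as a dashed line at 47.2. All 4 CXADR lines and the CLDN12 line fall to the right, and the 4 OCLN lines are nearly flat.

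CXADR, the coxsackievirus and adenovirus receptor and an immunoglobulin-family adhesion protein of the junction, was higher after miR-99a by every probe set. Its brightest, 203917_at, had a signal of 2638 on the miR-99a array and 1434 on the si-GL2 array, a difference of 0.87. Probe set 226374_at was 1581 with miR-99a and 926 with si-GL2 (0.76). Probe set 1555716_a_at was 395 with miR-99a and 189 with si-GL2 (1.01). The miR-99a array was higher each time, also by 239155_at, at 367 with miR-99a and 224 with si-GL2 (0.68). As linear ratios of the deposited signals, miR-99a over si-GL2, the 4 ranged from 1.64 to 2.09. Their differences had an SD of 0.14 between probe sets, against a median of 0.17 over the 1062 genes with at least 4 expressed probe sets. Among those 1062 genes, CXADR and the histone methyltransferase gene KMT5A were the 2 whose expressed probe sets were all at least 1.5-fold higher, and 4 genes had all of theirs at least 1.5-fold lower. KMT5A was named after its values were seen; its probe sets lay between 0.75 and 0.91. Probe sets of 1 gene read the same RNA of the same 2 cultures and are not replicates of the transfection.

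Where the CXADR probe sets lie within the gene, and on which strand, was not examined. The gene BTG3, an antiproliferative factor of the BTG/TOB family, lies inside the annotated span of CXADR, at chr21:17593653-17612901 in GRCh38.p14. All 4 BTG3 probe sets were above 0, between 0.21 and 0.37, and the brightest was 1436 with miR-99a and 1144 with si-GL2 (0.32). RefSeq also lists 3 CXADR pseudogenes elsewhere in the genome. Whether any CXADR probe set reads one of them, or BTG3, was not tested. The nearest named protein-coding genes outside the span differed less by their brightest probe sets. C21orf91, 152712 bases away, was at 0.06. The deubiquitinase gene USP25, 1632979 bases away, was at -0.11, with 5 probe sets between -0.40 and 0.06.

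**Figure D2:**
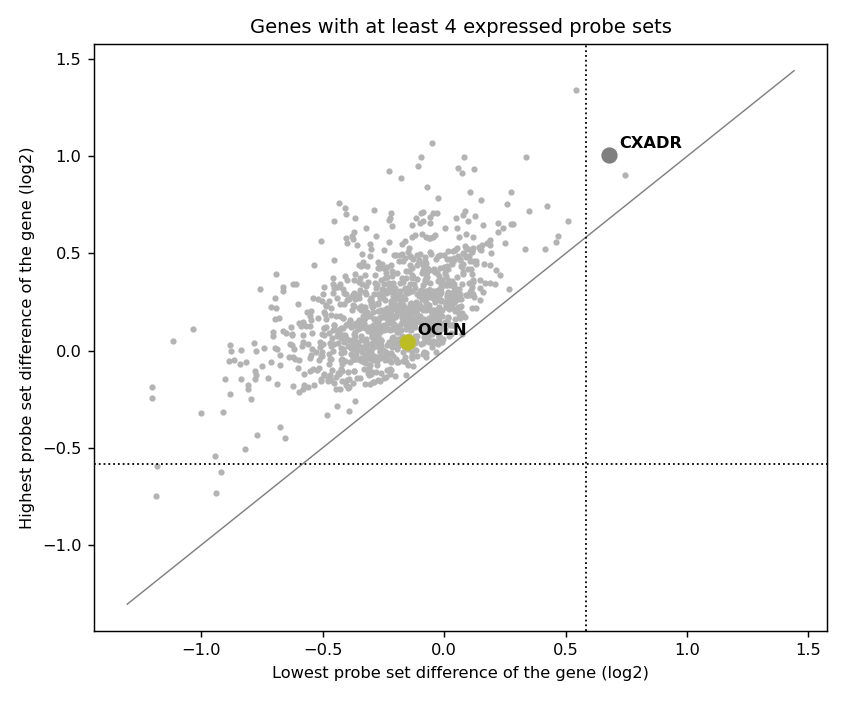
Lowest (horizontal axis) against highest (vertical axis) probe set difference, miR-99a minus si-GL2 in log2, for the 1062 genes with at least 4 expressed probe sets. CXADR spans 0.68 to 1.01 and lies right of the dotted vertical line at 1.5-fold higher, while OCLN spans -0.15 to 0.04; the grey diagonal marks equal values.

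CLDN12, a claudin without the usual binding motif for PDZ domains that is linked to calcium uptake in the intestine, had the largest difference of the 22 probe sets on this scale. Its 1 probe set, 223249_at, was 2370 with miR-99a and 1137 with si-GL2, a difference of 1.05 and a linear ratio of 2.08. As a linear ratio, and with a pseudocount of 1 (1.06 for both), the CXADR probe set 1555716_a_at was marginally larger, at a ratio of 2.09. Of 1907 expressed probe sets within 0.5 of the mean log2 level of the CLDN12 probe set, 0 had a difference as high. For the CXADR probe sets this count was 1 of 1644 for 203917_at, 13 of 2413 for 226374_at, 29 of 4223 for 239155_at and 1 of 4261 for 1555716_a_at. Such counts can include probe sets of the other genes described here. Because the genes were chosen by these differences, high places were fixed beforehand and the counts test nothing. CLDN12 had no second probe set of its own as a check, and a dim one that the annotation shares with PTTG1IP2 was at 0.25. The neighbouring kinase gene CDK14, 180367 bases away on chromosome 7, was at -0.34 by its brightest probe set, with 3 probe sets between -0.52 and 0.45. The nearer neighbour on the other side, GTPBP10 at 12008 bases, was below the expression limit, with a signal of 1.0 on both arrays.

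CLDN7, a claudin of glandular epithelia, and TJP1 lay above the control array by less than 1.5-fold. CLDN7 was 2893 with miR-99a and 2259 with si-GL2 (0.35) by 1 probe set, 202790_at. TJP1, the ZO-1 scaffold that links strands to actin, was 3915 with miR-99a and 3061 with si-GL2 by 202011_at (0.35). Its second probe set, 214168_s_at, was 1097 with miR-99a and 851 with si-GL2 (0.36). Differences spread less among bright probe sets: of 944 expressed probe sets within 0.5 of the level of 202011_at, 17 had a difference as high, and for CLDN7 24 of 1259 did. For the second TJP1 probe set, at a lower level, 157 of 2831 did. These counts, too, are of genes chosen by their differences and test nothing. The gene ELP5 overlaps an end of CLDN7, and its 2 probe sets were at -0.11 and 0.22. One TJP1 pseudogene is annotated, and its part in the TJP1 signal was not tested.

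Occludin differed by at most 0.15 in size over its 4 probe sets. The brightest, 227492_at, was 1107 with miR-99a and 1125 with si-GL2 (-0.02). The others, 209925_at, 231022_at and 235937_at, were 245, 207 and 128 with miR-99a and 237, 232 and 124 with si-GL2, differences of 0.04, -0.15 and 0.04. A pseudogene, OCLNP1, lies on the same chromosome, and whether a probe set reads it was not tested. MARVELD2, which encodes tricellulin, a relative of occludin placed at the corners where cells meet, neighbours OCLN at a distance of 48217 bases. It was 848 with miR-99a and 1095 with si-GL2 (-0.36) and at -0.16 by its second probe set.

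The barrier claudins CLDN3 and CLDN4, receptors for the enterotoxin of Clostridium perfringens, lie 60726 bases apart on chromosome 7. CLDN3 was 968 with miR-99a and 1070 with si-GL2 by 203954_x_at (-0.14), and 1021 with miR-99a and 931 with si-GL2 by 203953_s_at (0.13). These 2 probe sets had opposite signs. CLDN4 was 532 with miR-99a and 578 with si-GL2 by its bright probe set 201428_at (-0.12), while its dim one, 1569421_at, was 72.9 with miR-99a and 51.4 with si-GL2 (0.40). The last value is the largest among the expressed probe sets short of 1.5-fold, and the CXADR value of 0.68 is the smallest past it.

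CLDN8, known from the kidney collecting duct, was 184 with miR-99a and 216 with si-GL2 (-0.21). CLDN1, a barrier claudin of skin, was near the expression limit, at 57.1 with miR-99a and 44.5 with si-GL2 (0.27), and its second probe set was dimmer, at 4.78 with miR-99a and 8.26 with si-GL2 (-0.22). The span of CLDN16 takes in CLDN1, and CLDN16 was at -0.03. CLDN11, the claudin of myelin and of Sertoli cells, was below the limit by all 3 probe sets. Its brightest was 31.1 with miR-99a and 42.3 with si-GL2 (-0.31), and its others were 2.60 and 2.20 with miR-99a and 13.2 and 6.33 with si-GL2 (-0.65 and -0.30). The 1 lower call among the 22 probe sets is the value of -0.65 and rests on such dim signals.

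**Figure D3:**
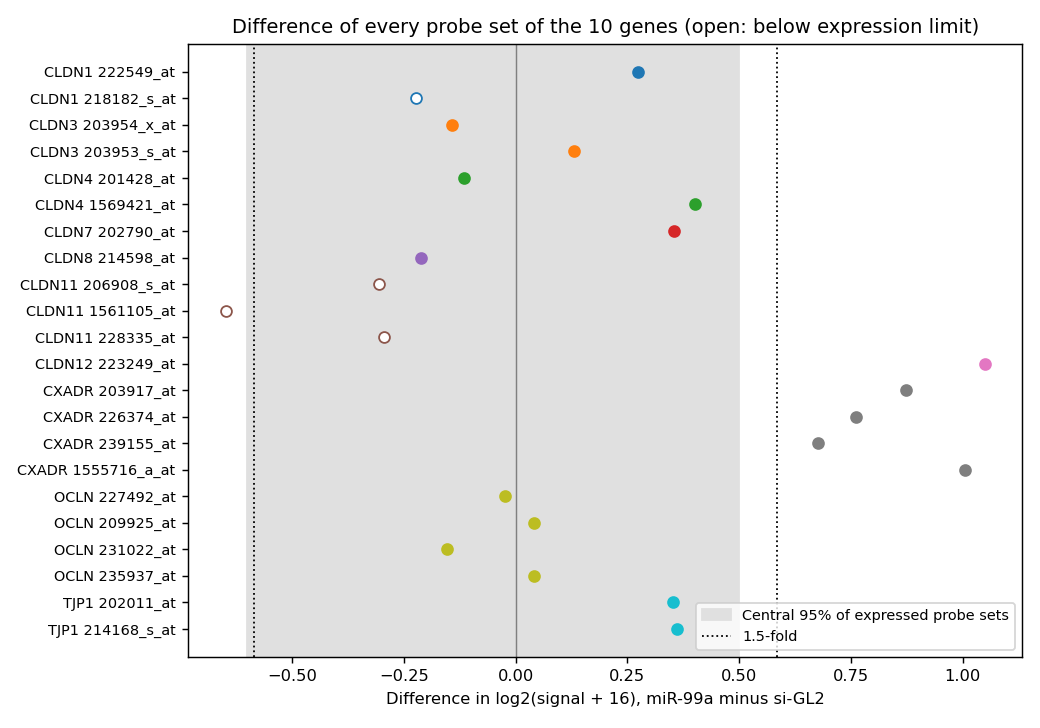
Difference in log2(signal + 16), miR-99a minus si-GL2, of each of the 22 probe sets, named by gene and probe set. Shading spans the central 95% of all expressed named probe sets (-0.60 to 0.50) and dotted lines mark 1.5-fold; the 4 CXADR points and the CLDN12 point lie to the right of both.

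As a set, the 22 probe sets had a median difference of 0.09, against -0.01 over all named probe sets; without probe sets marked _x_ or _s_, which can bind related transcripts, it was 0.27. The 18 expressed ones had a median of 0.31, with 13 above 0 and 5 below, against -0.02 over all expressed named probe sets. Without CXADR and CLDN12, the median of the remaining 13 expressed probe sets was 0.04. The median of the 10 genes by brightest probe set was 0.12, with 5 above 0 and 5 below.

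**Figure D4:**
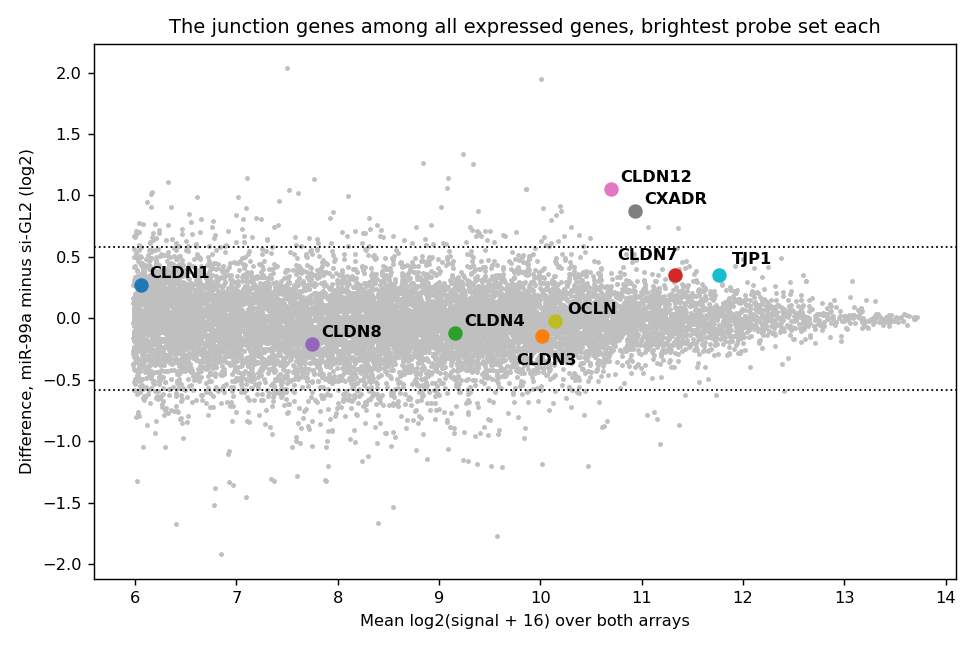
Mean log2(signal + 16) over both arrays (horizontal axis) against the difference, miR-99a minus si-GL2 (vertical axis), for the 12218 expressed genes by brightest probe set (grey), with the 9 expressed tight junction genes in colour. CLDN12 at 1.05 and CXADR at 0.87 lie above the dotted 1.5-fold line, CLDN7 and TJP1 at 0.35 lie at the upper edge of the narrower cloud of bright genes, and CLDN3, CLDN4, CLDN8 and OCLN lie between -0.21 and -0.02.

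The other genes of the tight junction, taken from 3 lists of claudins, of further membrane proteins and of plaque and polarity proteins, held 34 expressed genes. By brightest probe set, 0 of these were 1.5-fold higher and 0 lower, where 1.21% and 2.90% of all expressed genes were. Their median was -0.02, against -0.03 over all expressed genes, with 14 above 0 and 20 below. A dimmer expressed probe set of YBX3 was at 0.62, from 91.1 with miR-99a and 53.6 with si-GL2, while its brightest was at 0.11. With 1 array a group no test lies behind these counts.

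Among the other claudins, 7 of 13 measured genes were expressed, with a median of 0.00. CLDN15, a pore-forming claudin of the intestine, was 310 with miR-99a and 254 with si-GL2 (0.27), but its second probe set was at -0.26. CLDN9 was at 0.24 and CLDN14 at -0.08. CLDN23 was 105 with miR-99a and 159 with si-GL2 (-0.53), just short of 1.5-fold. Of the further membrane proteins, 6 of 12 were expressed, with a median of -0.05. MARVELD2 (-0.36) and MARVELD3 (-0.18), the relatives of occludin, were lowest. The adhesion molecule JAM3, from dim signals of 59.8 with miR-99a and 43.0 with si-GL2, was highest at 0.36. Its other probe sets, below the expression limit, were at -0.61 and -0.19. LSR, the lipoprotein receptor that recruits tricellulin, was 871 with miR-99a and 874 with si-GL2 (0.00).

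Of the plaque and polarity proteins, 21 of 23 measured genes were expressed, with a median of -0.01. TJP3, the ZO-3 relative of TJP1, was 171 with miR-99a and 129 with si-GL2 (0.37), with its second probe set at 0.11. The Rab13 effector MICALL2 was at 0.21, the angiomotin relative AMOTL2 at -0.28 and CGNL1, paracingulin, at -0.26, or 0.16 by its second probe set.

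**Figure D5:**
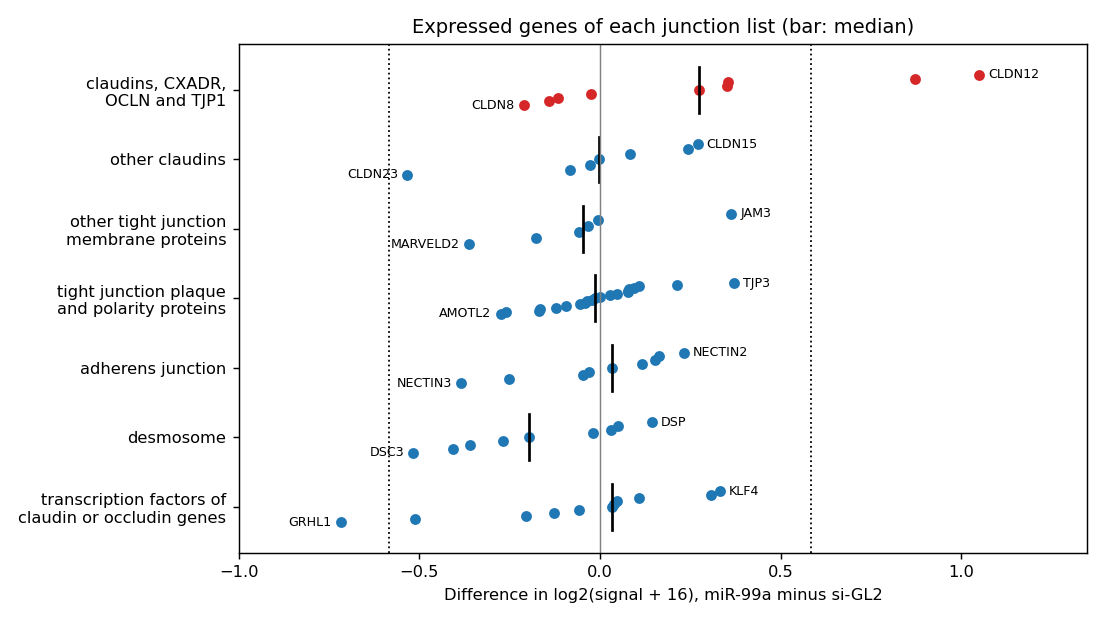
Difference in log2(signal + 16), miR-99a minus si-GL2, of each expressed gene by brightest probe set, for the described genes (red) and 6 further junction lists (blue); black bars are medians and dotted lines 1.5-fold. Past the dotted lines lie CXADR and CLDN12 on the right and GRHL1 on the left.

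Below the tight junction lie the adherens junction, which couples cadherins to actin, and the desmosome, which couples its own cadherins to keratins. Of the adherens junction genes, 9 of 12 were expressed, with a median of 0.03. E-cadherin, CDH1, was 4324 with miR-99a and 3890 with si-GL2 (0.15), and alpha-catenin, CTNNA1, was 3457 with miR-99a and 3084 with si-GL2 (0.16) with all 5 probe sets between 0.15 and 0.52. NECTIN2 was at 0.23, although its 4 probe sets ranged from -0.40 to 0.58, while NECTIN1 was at -0.25 and NECTIN3 at -0.38. Of the desmosome genes, 9 of 10 were expressed, with a median of -0.20 and 6 below 0. The desmosomal cadherin DSC2 was 504 with miR-99a and 673 with si-GL2 (-0.41, and -0.40 by its second expressed probe set). DSC3, near the expression limit, was at -0.52, while desmoplakin, DSP, at 0.14 and the desmoglein DSG3 at 0.05 were highest. By brightest probe set, 0 of the 9 desmosome and 9 adherens genes passed 1.5-fold in either direction. Over all expressed genes, 1.21% were higher and 2.90% lower.

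Transcription factors known to act on claudin or occludin genes were listed as well, and 11 of 16 measured factors were expressed, with a median of 0.03. By brightest probe set, GRHL1, a grainyhead-like epithelial factor, was the 1 past 1.5-fold, where 1.21% of all expressed genes were higher and 2.90% lower. It was 189 with miR-99a and 321 with si-GL2 (-0.72), with its second probe set at -0.28. Its relative GRHL2, known from mouse epithelia as an activator of claudin and E-cadherin genes, was 1781 with miR-99a and 1722 with si-GL2 (0.05). KLF5 was 255 with miR-99a and 370 with si-GL2 (-0.51) and at -0.68 by its other probe set, and KLF4 was at 0.33. The epithelial ETS factor EHF was 7007 with miR-99a and 5655 with si-GL2 (0.31), and its 6 probe sets lay between 0.13 and 0.69. The repressor SNAI1, which binds E-box sequences in claudin and occludin promoters, was 76.5 with miR-99a and 69.8 with si-GL2 (0.11), and SNAI2 was at 0.04. ZEB1, ZEB2 and TWIST1 were below the expression limit.

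No promoter window was available for CXADR or CLDN8, so these genes were not searched. For the other 8 of the 10 genes, windows from 250 bases before to 50 after the annotated start were found in RefSeq (GRCh38.p14), 14 in all. They are shown for 3 genes with unlike differences, CLDN12 (1.05), CLDN7 (0.35) and OCLN (-0.02), to set their E-boxes side by side. Sequences run 5′ to 3′ on the gene's strand, and capitals mark CAGGTG or its reverse complement CACCTG, the E-box form bound by SNAI1 and ZEB1.
CLDN12, chr7:90403211-90403510, plus strand: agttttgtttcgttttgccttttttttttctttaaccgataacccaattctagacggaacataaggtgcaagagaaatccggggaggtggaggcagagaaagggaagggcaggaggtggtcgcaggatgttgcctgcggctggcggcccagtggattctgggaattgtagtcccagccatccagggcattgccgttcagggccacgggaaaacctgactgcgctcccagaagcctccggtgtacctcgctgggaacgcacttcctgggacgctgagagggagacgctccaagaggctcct
CLDN7, chr17:7262429-7262728, minus strand: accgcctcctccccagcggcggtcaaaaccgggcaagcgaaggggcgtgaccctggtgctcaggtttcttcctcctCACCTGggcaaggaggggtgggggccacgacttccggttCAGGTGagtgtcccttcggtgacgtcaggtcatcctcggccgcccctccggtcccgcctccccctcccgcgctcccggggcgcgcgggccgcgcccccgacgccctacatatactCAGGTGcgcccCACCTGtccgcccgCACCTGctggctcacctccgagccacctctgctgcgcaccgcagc
OCLN, chr5:69492540-69492839, plus strand: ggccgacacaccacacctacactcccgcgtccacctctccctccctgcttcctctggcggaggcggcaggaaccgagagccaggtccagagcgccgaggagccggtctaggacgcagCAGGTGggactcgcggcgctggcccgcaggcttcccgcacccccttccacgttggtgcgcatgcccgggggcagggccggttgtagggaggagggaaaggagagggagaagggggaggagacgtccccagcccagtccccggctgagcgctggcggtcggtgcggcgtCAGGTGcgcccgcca
The printed CLDN7 window holds 5 matches, the printed OCLN window 2 and the CLDN12 window 0. CLDN7 and OCLN each have another annotated start, and those windows hold 0 matches for CLDN7 and 1 for OCLN; the printed ones are the richer of each pair. Counting both strands, CAGGTG occurs in 5 of the 14 windows and in 20.6% of all 35116 windows searched. Matches numbering 5 or more occur in 33 of those, 0.094%. The cut-off of 5 equals the count in the printed CLDN7 window, the richest of the 14, so that share tests nothing. The grainyhead-like motif AACNNGTT occurs in 0 of the 14 windows and in 3.52% of all. The GC-box GGGCGG occurs in 10 of the 14 and in 45.0% of all. The 14 windows had a higher median GC content, 67.5% against 58.7% over all windows. TJP1, CLDN7, CLDN11 and OCLN each give several of them, and the shares were adjusted for neither. In the 14 windows, 0 of the CAGGTG matches overlap a match to either other motif. The search describes letters within these windows and says nothing of binding in C4-2 cells.

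The cells carried the markers of their label. Luminal prostate and epithelial markers were expressed in 9 of 9 measured genes, among them KLK3, KLK2, HOXB13, TMPRSS2, KRT8, KRT18 and EPCAM, with signals from 378 to 6982 after miR-99a and from 312 to 7147 after si-GL2. The summed signals of 8 endothelial, 5 leukocyte and 7 fibroblast markers were 386, 219 and 570 with miR-99a and 362, 172 and 520 with si-GL2, and 2, 2 and 5 of these markers were expressed. The 4 measured basal markers summed to 720 with miR-99a and 558 with si-GL2. Most of this was the integrin gene ITGA6, at 638 with miR-99a and 465 with si-GL2. The basal keratin genes KRT5 and KRT14 were below the expression limit, at 20.1 and 15.1 with miR-99a and 14.8 and 25.7 with si-GL2. ITGB4 was near the limit, at 46.5 with miR-99a and 52.6 with si-GL2. The lowest signal of any probe set was 0.70 with miR-99a and 0.73 with si-GL2, so no marker could be listed at 0. The part of these markers in the differences above was not tested. In RNA of a whole culture, more cells with a transcript and more transcript per cell cannot be told apart. The 18 hybridisation spike probe sets differed by between -0.12 and 0.06, and the 5′ to 3′ log2 signal ratio changed by -0.02 for ACTB and 0.06 for GAPDH.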

How the data were processed

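The authors deposited a processed linear intensity for each of 54675 Affymetrix probe sets on both arrays; biotin labelling and hybridisation followed the manufacturer's procedure, per the labels' protocols, while no label gives the summarisation or scaling method. The array medians were 47.8 with miR-99a and 47.4 with si-GL2, a log2 difference of 0.01, so values were used as deposited. Probe sets were named from the platform annotation, and the 1801 with several gene names were left out. Signals became log2(signal + 16), and each gene took the value of its brightest probe set. The SD between expressed probe sets of 1 gene, pooled over 5842 genes, was 0.20 and served as the limit for a moved value. The genes and the lists were chosen with earlier results of these data known. Named are all 10 genes and, of each junction list, the 2 highest, the 2 lowest and any past 1.5-fold; other names are for background. Neighbouring genes, KMT5A and the comparison at like level were added after the values were seen. Alternatives were pseudocounts of 1 and 64, quantile normalization, centring, a 2-fold rule, the mean over probe sets, omitting probe sets marked _x_ or _s_, and another expression limit. The calling rule was run on simulated data with 2-fold changes planted in brighter genes. The simulated noise was smaller than the spread of the real differences, an SD of 0.27 over expressed named probe sets. That run checked the code and gives no error rate for these arrays. Python 3.11.15, numpy 2.4.6 and pandas 2.3.3 were used.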

Additional observations from a re-analysis of the deposited data

Results flagged for a closer look

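A probe set that stayed outside the comparison held signal above the control array. The annotation gives 243761_at to both CLDN12 and PTTG1IP2, so it could not be assigned to 1 gene; it was 70.7 with miR-99a and 57.1 with si-GL2, a difference of 0.25, in the same direction as the 1.05 of the probe set of CLDN12 alone and short of 1.5-fold.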

How the results depend on the processing

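No paired analysis was possible because each group holds 1 array. CXADR and CLDN12 kept their direction under both other pseudocounts, quantile normalization and centring, with probe set differences from 0.58 to 1.06 for CXADR and from 1.02 to 1.06 for CLDN12; at a pseudocount of 64 the dimmer CXADR probe set 239155_at came just short of 1.5-fold. With a 2-fold rule, 2 of the 18 expressed probe sets were higher and 0 lower, against 0.138% and 0.317% of all expressed named probe sets. The counts over all 22 were the same. By brightest probe set 1 gene, CLDN12, was higher, and the 2-fold share over all genes was not computed. The count of lower probe sets was 3 at a pseudocount of 1, 0 at a pseudocount of 64 and 0 among expressed probe sets only; all of these were dim probe sets of CLDN11 and CLDN1, and CLDN11 was the 1 gene lower by its brightest probe set without the _x_ and _s_ ones. The median over probe sets was 0.31 for expressed ones only and 0.27 without the _x_ and _s_ ones. Among the other tight junction genes, 1 was lower at a pseudocount of 1, CLDN23. The other 43 of 52 recomputed counts and medians stayed within 1.5 times the reported count or within the limit for a moved value. Dim signals limit what can be said of CLDN1 and CLDN11, and 1 array a group limits every value.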

Other observations

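Further probe sets with shared names gave values for junction genes that the comparison left out. The 4 probe sets given to both CTNND1, which encodes p120-catenin of the adherens junction, and TMX2-CTNND1 lay between -0.07 and 0.07, the brightest at 771 with miR-99a and 812 with si-GL2. Of the 3 given to both CLDN22 and WWC2, 1 was expressed, at 164 with miR-99a and 168 with si-GL2 (-0.03).

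Of the nearest protein-coding neighbours on the genome, METTL27, beside CLDN4, was at -0.21, ABHD11, beside CLDN3, at 0.21, and CTDNEP1, near CLDN7, at 0.08.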
